A study of Homo sapiens with 9 samples.

Results

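Messenger RNA of the chemokine CXCL12 and of its receptors CXCR4 and ACKR3 was followed in 786-O cells, an established human line from a clear cell renal cell carcinoma (ccRCC) that lacks functional VHL and therefore accumulates HIF2α at normal oxygen. These are 3 of the 38021 genes in the table of read counts, taken by name across all 9 libraries. They were chosen by their known relation as ligand and receptors and with read counts of these same libraries in view, ACKR3 having already been seen to be low under shARNT. Their levels and fold changes are therefore given as a description, without p-values. The cells carried short hairpin RNA (shRNA) from a lentiviral pLKO.1 vector, either the control (shControl) or one against ARNT (shARNT) or against BMAL1 (shBMAL1), with 3 biological replicate libraries per group, as labelled. All cells were infected, selected with puromycin and kept in it, and all were listed as wild type. The study made more than one shRNA against BMAL1 and the labels do not say which was used here, so an effect of the hairpin cannot be told apart from an effect of its target. The comparison addresses how far ARNT and BMAL1, which can each pair with HIF2α, contribute to gene expression in these cells.

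CXCL12 is a secreted chemokine that binds heparan sulphate and draws leukocytes, stem cells and tumour cells along its gradient. CXCR4 is its classical receptor, which signals through inhibitory G proteins to kinases and the cytoskeleton. ACKR3, formerly CXCR7, binds CXCL12 more tightly, recruits arrestins without activating G proteins, and clears the chemokine by carrying it into the cell. Loss of VHL and stabilised HIF are known to raise CXCR4 in renal carcinoma, and HIF complexes with ARNT bind hypoxia response elements with the core ACGTG or GCGTG, whereas BMAL1 with CLOCK binds the E-box CACGTG.

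In the GENCODE annotation lifted to GRCh37, all of these genes are protein-coding and none overlaps another annotated gene. ACKR3 (ENSG00000144476) lies on the plus strand of chromosome 2 from 237476430 to 237490997, and its canonical transcript has 2 exons and 2015 bases. CXCR4 (ENSG00000121966) lies on the minus strand of the same chromosome from 136871919 to 136876747, with 2 exons and 1668 bases. CXCL12 (ENSG00000107562) lies on the minus strand of chromosome 10 from 44865613 to 44881941, with 3 exons and 1928 bases.

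The promoters of CXCR4 and CXCL12 are shown because the cores above are the letters that HIF and BMAL1 complexes read. Each window holds 250 bases before the start and 50 after it, from RefSeq on GRCh38.p14, where 2 of the 3 genes were matched, ACKR3 being the other. The windows are chr2:136118100-136118399 and chr10:44385048-44385347, both on the minus strand and written 5′ to 3′, and capitals mark a GCGTG.
CXCR4: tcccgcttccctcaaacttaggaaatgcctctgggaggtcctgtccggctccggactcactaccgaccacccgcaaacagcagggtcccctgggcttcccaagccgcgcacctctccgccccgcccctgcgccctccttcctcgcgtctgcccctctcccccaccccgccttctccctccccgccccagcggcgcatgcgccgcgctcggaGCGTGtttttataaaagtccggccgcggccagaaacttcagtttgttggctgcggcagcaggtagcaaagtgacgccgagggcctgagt
CXCL12: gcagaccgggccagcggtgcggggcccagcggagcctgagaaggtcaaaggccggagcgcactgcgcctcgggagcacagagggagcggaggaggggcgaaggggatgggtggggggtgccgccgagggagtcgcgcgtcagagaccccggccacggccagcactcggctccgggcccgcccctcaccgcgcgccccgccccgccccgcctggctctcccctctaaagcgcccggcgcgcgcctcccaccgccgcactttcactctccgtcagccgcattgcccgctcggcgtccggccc
The CXCR4 window held 1 GCGTG, 39 bases before the start, and no ACGTG or CACGTG on either strand. Of the other CXCR4 windows in the table (3 in all), one held none of these letters and the other held 2 GCGTG. The CXCL12 window held none. Among 35116 promoter windows of the same length, 36.5% held GCGTG, 21.4% held ACGTG, 48.4% held at least one of the pair, and 7.26% held CACGTG, which contains ACGTG.

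Libraries held 33793043 to 35444731 reads. ARNT had 2352 ± 184 normalised read counts in shControl and 1225 ± 23.2 in shARNT, and BMAL1, listed as ARNTL, had 761 ± 32.0 in shControl and 326 ± 29.2 in shBMAL1 (SD, n = 3), so the targeted transcripts were lower in the libraries labelled for them. The partner that was not targeted was also lower without overlap, ARNTL at 633 ± 57.8 in shARNT (log2 −0.26, DESeq2 adjusted p 0.0294) and ARNT at 2014 ± 76.2 in shBMAL1 (log2 −0.23, adjusted p 0.0187). These smaller calls were lost without shControl replicate 2 (adjusted p 0.15 and 0.162), that of ARNTL also without shARNT replicate 3 (0.22) and that of ARNT without shBMAL1 replicate 2 (0.109). Of all tested genes, 23.0% were lower without overlap in shARNT and 22.9% in shBMAL1. For protein, the paper reports the other direction by immunoblot, with slightly more of each partner when the other was depleted. Mitochondrial genes took 5.46 to 7.14% of the reads of shControl libraries, 7.59 to 8.74% for shARNT and 8.71 to 9.66% for shBMAL1. All 8 renal and ccRCC markers were detected, and their summed normalised count ran from 54959 to 57313 for shControl, from 74080 to 76200 for shARNT and from 87058 to 92987 for shBMAL1. Most of that rise was CDH6, a kidney cadherin with means of 13874, 27963 and 45691, and the list did not move as one, with 4 markers higher and 1 lower in shARNT and 5 higher and 2 lower in shBMAL1. The renal transcription factor PAX8 had 10004 ± 516, 10031 ± 238 and 7156 ± 387, and it fell in shBMAL1 (log2 −0.49, adjusted p 1.71e-11). The part of these shifts in the values below was not tested. In bulk RNA, fewer cells that express a gene and less RNA per cell cannot be told apart.

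ACKR3 was the dominant receptor transcript in control cells, and it was lowest in shARNT. The shControl libraries had 1286, 1403 and 1329 normalised read counts, the shARNT libraries 127.6, 155.2 and 143.1, and the shBMAL1 libraries 801.2, 616.8 and 517.0. The groups did not overlap, and shBMAL1 lay between the others in every library. The control mean was 1339 ± 58.9, that of shARNT 142 ± 13.8 and that of shBMAL1 645 ± 144 (SD, n = 3), so shARNT kept 10.6% and shBMAL1 48.2% of the control level. The log2 fold change was −3.23 (SE 0.11) in shARNT and −1.06 (SE 0.13) in shBMAL1 against shControl. Compared directly, shBMAL1 was above shARNT by 2.18 on the log2 scale (SE 0.16), or 4.54-fold. Libraries of shBMAL1 varied more among themselves, with a coefficient of variation of 22.4% against 4.40% in shControl.

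Lower levels without overlap were common, being found in 23.0% of 15164 genes tested for shARNT and in 22.9% of 19036 genes tested for shBMAL1. Higher levels without overlap in shBMAL1 than in shARNT were found in 22.2% of 18181 genes. The size of the difference is given as a rank among genes. ACKR3 was chosen after its low level in shARNT had been seen, so its ranks are a description only. Among the 14274 genes whose mean normalised count was 20 or more, its log2 fold change ranked 2 from the lowest in shARNT. In shBMAL1 it ranked 308 from the lowest of 14432, and between the knockdowns it ranked 82 from the highest of 14473.

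CXCR4 was a low transcript, and its order was different, with shBMAL1 lowest. The shControl libraries had 57.35, 84.97 and 66.72 normalised read counts, the shARNT libraries 47.75, 45.17 and 53.67, and the shBMAL1 libraries 19.86, 19.15 and 14.69. The shBMAL1 libraries lay far below all others, whereas the highest shARNT library at 53.67 was close to the lowest shControl library at 57.35. The control mean was 69.7 ± 14.0, that of shARNT 48.9 ± 4.36 and that of shBMAL1 17.9 ± 2.80 (SD, n = 3), which are 70.1% and 25.7% of control for the knockdowns. The log2 fold change was −1.96 (SE 0.36) in shBMAL1 and −0.51 (SE 0.29) in shARNT, the latter less than 2 SE from 0. The direct difference of shBMAL1 from shARNT was −1.45 (SE 0.38), and 21.7% of genes tested there were lower without overlap. These counts rest on 208 reads over the 3 shControl libraries, 149 over those of shARNT and 54 over those of shBMAL1, so counting error weighs more on CXCR4 than on ACKR3. By log2 fold change CXCR4 ranked 46 from the lowest in shBMAL1, 973 in shARNT and 75 in the direct comparison.

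**Figure D1:**
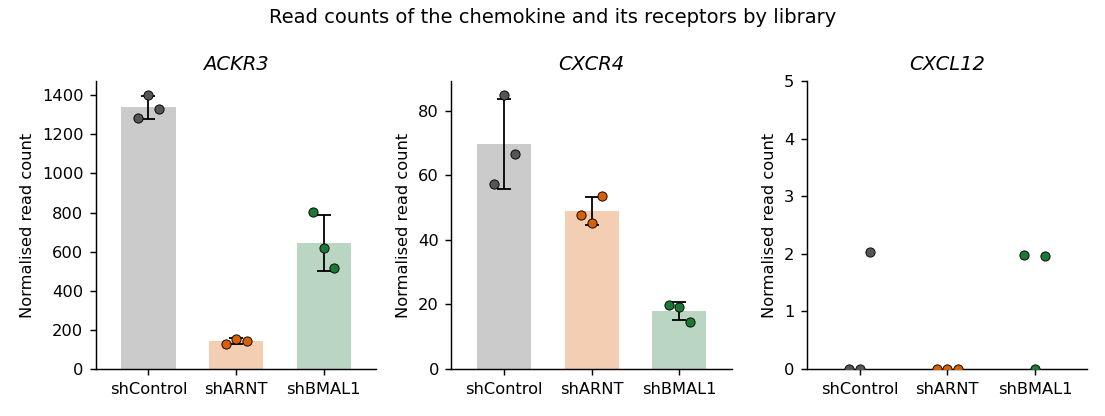
Normalised read counts of ACKR3, CXCR4 and CXCL12 (vertical axes, each on its own scale) in the 9 libraries, 3 per group, as points. Bars and error bars for ACKR3 and CXCR4 are the mean and SD. ACKR3 was lowest in shARNT at 142 ± 13.8 and CXCR4 in shBMAL1 at 17.9 ± 2.80, and CXCL12 did not exceed 2 reads in any library.

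**Figure D2:**
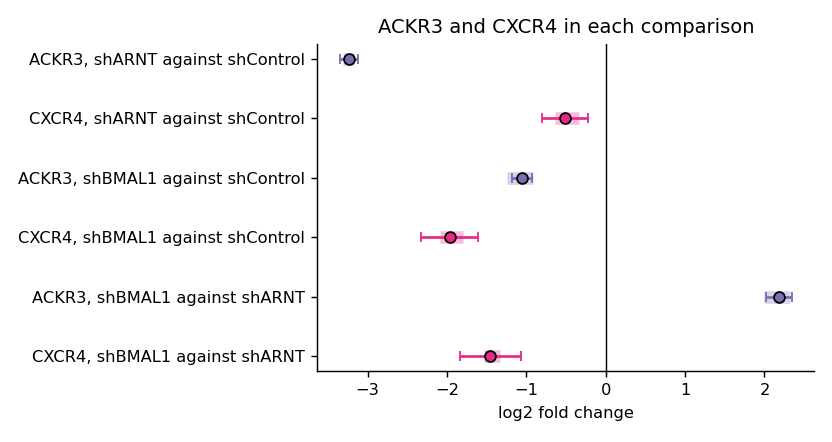
Log2 fold changes of ACKR3 and CXCR4 (horizontal axis) in the 3 comparisons. Points and whiskers are the DESeq2 estimate and its SE, and the wide bands span the alternative settings and left-out libraries. ACKR3 had −3.23 in shARNT and −1.06 in shBMAL1, whereas CXCR4 had −0.51 and −1.96.

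Scaled by transcript length, ACKR3 exceeded CXCR4 in every library. ACKR3 had an RPKM, the reads per kilobase of transcript scaled to library size, of 18.9 ± 0.633 (shControl), 2.04 ± 0.1999 (shARNT) and 9.32 ± 1.93 (shBMAL1), and CXCR4 of 1.19 ± 0.227, 0.849 ± 0.0745 and 0.313 ± 0.0455 (SD, n = 3). For every 100 ACKR3 reads per kilobase, the shControl libraries had 5.39, 7.32 and 6.06 CXCR4 reads per kilobase. The shARNT libraries had 45.2, 35.2 and 45.3, and the shBMAL1 libraries 2.99, 3.75 and 3.43. The balance of the receptors thus moved in opposite directions, with a mean of 41.9 ± 5.82 for shARNT, 6.26 ± 0.980 for shControl and 3.39 ± 0.380 for shBMAL1. It was 6.70-fold the control mean in shARNT, and the control mean was 1.84-fold that of shBMAL1. The groups did not overlap. Neither receptor rose in a knockdown, and the higher ratio in shARNT reflects the larger fall of ACKR3, to 10.6% of control against 70.1% for CXCR4. In shBMAL1 the ratio rests on 15 to 20 CXCR4 reads per library.

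**Figure D3:**
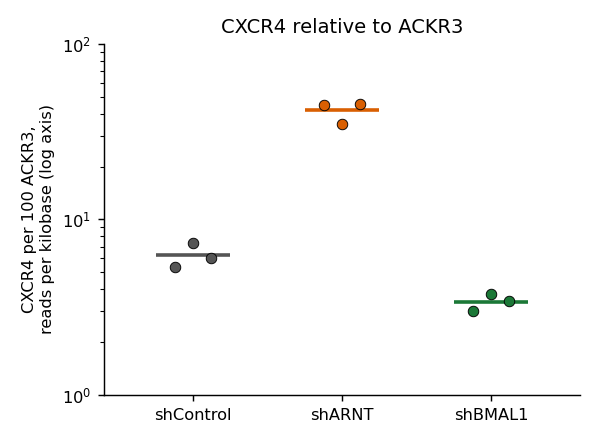
CXCR4 per 100 ACKR3, both in reads per kilobase of transcript (vertical log axis), in each of the 9 libraries as points with group means as lines. The shARNT libraries lie between 35.2 and 45.3, above the shControl libraries at 5.39 to 7.32, and the shBMAL1 libraries lie below them at 2.99 to 3.75.

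CXCL12 itself was at or near 0 in these cells. The shControl libraries had 0, 0 and 2 reads, the shARNT libraries 0, 0 and 0, and the shBMAL1 libraries 2, 0 and 2. A count of 0 allows up to 3 reads in a library, or 0.0846 to 0.0888 per 1000000 reads, so a difference between groups was not detectable at this depth and no fold is given. Such limits cover counting error only.

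Markers of other cells that carry these receptors or make the ligand were also examined. CXCR4 is abundant on leukocytes. Of the leukocyte markers, CD3E and LYZ were at 0 in all 9 libraries, and PTPRC reached 3 reads in 1 library. CD14 was detected in every library, with means of 9.72 (shControl), 10.8 (shARNT) and 10.9 (shBMAL1) normalised counts. The summed count of the 6 leukocyte markers ran from 7126 to 7892 (shControl), 6743 to 7354 (shARNT) and 5335 to 6742 (shBMAL1), nearly all of it CD68, a lysosomal protein with means of 7395, 7000 and 5991. Fibroblasts make CXCL12, and their 5 markers summed to 236 to 299 (shControl), 210 to 219 (shARNT) and 344 to 405 (shBMAL1). Most of that was COL1A1 and LUM. DCN stayed at 3 reads or fewer and THY1 at 16 or fewer, whereas PDGFRB had means of 21.8, 14.8 and 24.2 normalised counts. LUM was called higher in shBMAL1 (log2 1.05, DESeq2 adjusted p 1.67e-05), and COL1A1 was called lower in shARNT (log2 −0.41, adjusted p 0.0993). The 4 endothelial markers summed to 8.05 to 19.99, 7.80 to 16.9 and 10.8 to 13.9. CDH5 was at 0 throughout and VWF at 3 reads or fewer, whereas PECAM1 reached 9 reads and TEK 12.

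Beyond the 3 genes, 128 genes that act on or with this axis were read in 9 lists, and a gene was called at a DESeq2 adjusted p under 0.1. In shARNT, 30 of the 80 genes tested were lower and 10 higher, against a background of 19.0% lower and 16.5% higher over all genes. In shBMAL1, 34 of 89 were lower and 15 higher, against 19.4% and 17.4%. In the direct comparison, 28 of 87 were lower in shBMAL1 than in shARNT and 20 higher, against 18.0% and 17.3%. The signed median log2 fold change over the tested list genes, which moved both ways, was −0.09, −0.12 and −0.07, where that of all tested genes was 0.00, 0.02 and 0.01. The tested list genes were also more abundant than the background, with a median mean count of 1592 against 657 in the fit of shARNT, and the part of abundance in these counts was not tested.

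**Figure D4:**
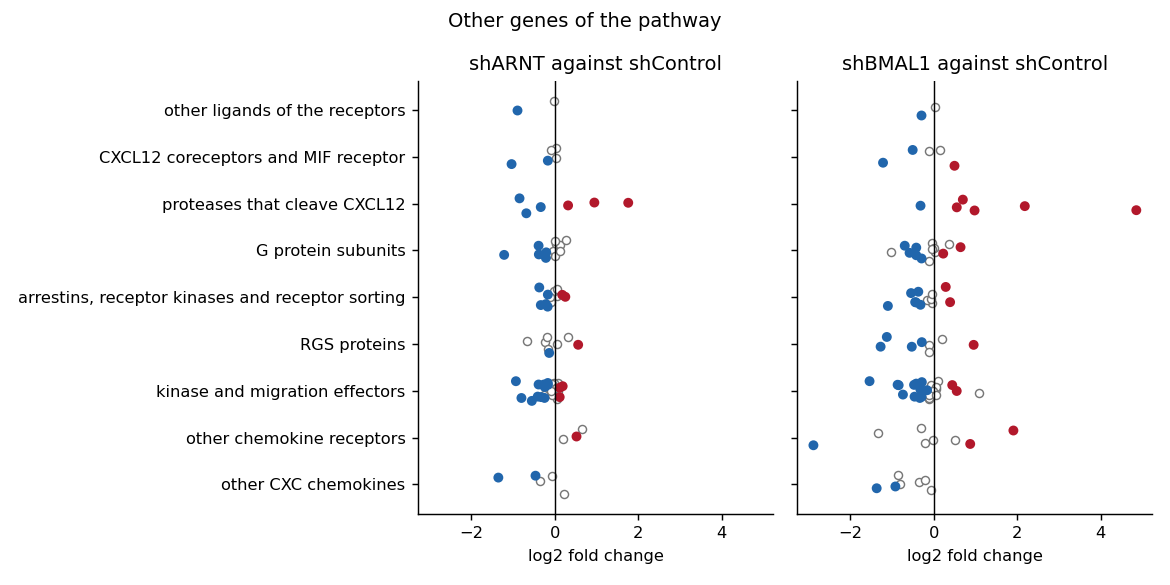
Log2 fold changes (horizontal axis) of the tested genes of the 9 lists (rows) in shARNT and shBMAL1 against shControl. Each point is a gene, filled blue or red where called lower or higher at an adjusted p under 0.1 and open otherwise. Proteases that cleave CXCL12 extend furthest to the right in shBMAL1, where 5 of 6 were higher.

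Of 6 other ligands of the receptors, 3 were listed at 0 in every library and 2 were tested. PENK and PDYN, the precursors of opioid peptides that ACKR3 scavenges, were at 0 in all 9 libraries, and CXCL11, a chemokine shared by ACKR3 and CXCR3, had 4 reads in 1 library. ADM, or adrenomedullin, a vasodilator peptide that ACKR3 can clear, fell in shARNT from 2155 ± 35.0 to 1148 ± 106 normalised counts (SD, n = 3; log2 fold change −0.91, SE 0.08, DESeq2 adjusted p 1.6e-30). In shBMAL1 it stood at 2198 ± 260 (log2 0.03, SE 0.09). HMGB1, a nuclear protein that binds CXCL12 outside the cell and boosts CXCR4 signalling, fell in shBMAL1 from 1577 ± 110 to 1275 ± 134 (log2 −0.31, SE 0.10, adjusted p 0.00551) and stood at 1558 ± 109 in shARNT. MIF, a cytokine that binds both receptors, was listed at 0 in all libraries. The row of MIF-AS1, an antisense gene noticed after the values were seen, overlaps MIF by 802 bases on chromosome 22 and held 13524 to 18413 reads. Whether counting used strand is not stated, so reads of MIF and MIF-AS1 cannot be told apart.

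The coreceptor with the largest fall differed between the knockdowns. CD74, the MIF receptor that joins with CXCR4, fell in shARNT from 268 ± 12.3 to 131 ± 5.10 normalised counts (log2 −1.03, SE 0.16, DESeq2 adjusted p 1.73e-09) and stood at 248 ± 15.8 in shBMAL1. The knockdowns differed directly by 0.92 (SE 0.17, adjusted p 4.12e-07). CD44, the hyaluronan receptor that can present CXCL12 to CXCR4, fell in shBMAL1 from 24113 ± 2013 to 10435 ± 1800 (log2 −1.21, SE 0.10, adjusted p 2.28e-32) and stood at 24796 ± 1195 in shARNT, with a direct difference of −1.25 (SE 0.09, adjusted p 1.03e-37). Among the heparan sulphate proteoglycans, SDC1 fell by 0.50 in shBMAL1 (SE 0.07, adjusted p 1.56e-11) and SDC4 rose by 0.50 (SE 0.10, adjusted p 1.32e-05). In all, 2 of 5 genes fell and none rose in shARNT, and 2 fell and 1 rose in shBMAL1.

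MMP13, a protease that cleaves CXCL12, held the largest log2 fold change among called genes of the 9 lists in each knockdown against shControl. In shBMAL1, 5 of the 6 such proteases tested were higher and 1 lower, with a median log2 fold change of 0.84. In shARNT, 3 were higher and 3 lower. DPP4, the membrane peptidase that trims and inactivates CXCL12, rose from 5390 ± 182 normalised counts to 6729 ± 347 in shARNT (log2 0.32, SE 0.06, DESeq2 adjusted p 1.56e-07) and to 10646 ± 485 in shBMAL1 (log2 0.98, SE 0.06, adjusted p 2.56e-50). The collagenase MMP1 rose from 156 ± 18.6 to 302 ± 28.4 and 711 ± 20.8 (log2 0.95 and 2.18), and MMP13 rose by 1.76 and 4.85 on the log2 scale. The gelatinase MMP2 moved in opposite directions, from 13009 ± 469 to 8125 ± 450 in shARNT (log2 −0.68, adjusted p 7.16e-33) and to 19123 ± 1913 in shBMAL1 (log2 0.55, adjusted p 3.11e-12). MMP14, which activates MMP2 at the cell surface, fell by 0.33 and 0.31. MMP9 fell in shARNT from 92.8 ± 2.90 to 51.8 ± 6.90 (log2 −0.84, adjusted p 0.00586) and rose in shBMAL1 to 151 ± 32.6 (log2 0.70, adjusted p 0.006), but without shBMAL1 replicate 1 the latter was 0.51 with an adjusted p of 0.114.

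G proteins carry the CXCR4 signal into the cell. Of 13 G protein subunits tested in shARNT, 5 fell and none rose, and of 14 in shBMAL1, 5 fell and 2 rose. GNG12, a gamma subunit, fell by 0.38 in shARNT (SE 0.09, DESeq2 adjusted p 0.000378). The beta subunit GNB4 fell in shBMAL1 from 802 ± 51.6 to 498 ± 46.9 normalised counts (log2 −0.69, SE 0.11, adjusted p 4.37e-09). Among RGS proteins, which switch G protein signals off, 1 of 8 fell and 1 rose in shARNT, and 4 of 8 fell and 1 rose in shBMAL1. RGS2 rose from 240 ± 68.0 to 353 ± 10.7 in shARNT (log2 0.56, adjusted p 0.00416) and to 466 ± 36.1 in shBMAL1 (log2 0.96, adjusted p 1.21e-07). RGS19 fell in shBMAL1 from 188 ± 46.6 to 78.0 ± 22.9 (log2 −1.27, SE 0.24, adjusted p 2.18e-06).

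Arrestins bind both phosphorylated receptors and are the main partners of ACKR3, and receptor kinases (GRKs) prepare their docking. Of 12 genes tested for arrestins, kinases and sorting, 5 fell and 2 rose in shARNT, and 6 fell and 2 rose in shBMAL1. ARRB1 had 1021 ± 35.4, 1059 ± 43.98 and 999 ± 85.3 normalised counts, in the order shControl, shARNT and shBMAL1, and was not called. GRK5 fell in shBMAL1 from 489 ± 21.8 to 229 ± 17.1 (log2 −1.09, SE 0.13, DESeq2 adjusted p 8.44e-16). GRK6, a kinase that phosphorylates CXCR4, fell by 0.33 in shARNT (adjusted p 7.02e-06) and by 0.44 in shBMAL1 (adjusted p 3.37e-07). HGS, which sorts ubiquitinated receptors to lysosomes, fell by 0.54 in shBMAL1 (SE 0.08, adjusted p 7.56e-11), and its partner STAM fell by 0.31 there (SE 0.07, adjusted p 0.000158).

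Of the kinase and migration effectors, 11 of 26 fell and 3 rose in shARNT, and 12 of 27 fell and 2 rose in shBMAL1. DOCK2, which activates RAC in cells moving towards chemokines, fell from 736 ± 44.9 normalised counts to 386 ± 35.5 in shARNT (log2 −0.93, SE 0.11, DESeq2 adjusted p 3.59e-16) and to 254 ± 6.17 in shBMAL1 (log2 −1.53, SE 0.12, adjusted p 8.12e-38). PIK3CD, a catalytic subunit of PI3K, fell from 2226 ± 126 to 1282 ± 32.5 and 1340 ± 71.4 (log2 −0.79, adjusted p 1.5e-27, and −0.73, adjusted p 4.97e-18). PLCB3, a phospholipase driven by G protein subunits, fell by 0.38 in shARNT (adjusted p 3.38e-07) and by 0.86 in shBMAL1 (adjusted p 8.72e-26).

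Few of the other chemokine receptors and CXC chemokines in the lists were expressed beside this axis. Chemokines of other families were not read. Of 21 other chemokine receptors, 3 reached a mean of 20 normalised counts in any group and 8 were at 0 in all libraries. Of those tested, 1 of 3 rose in shARNT, and 2 of 8 rose and 1 fell in shBMAL1. CCR10 stood at 27.8 ± 7.05, 31.8 ± 6.77 and 24.2 ± 4.36, in the same order, and was not called. Of 14 other CXC chemokines, 4 reached that level, and 2 of them fell in both knockdowns. CXCL8, the neutrophil attractant interleukin-8, fell from 172 ± 15.0 to 67.5 ± 1.95 in shARNT (log2 −1.35, SE 0.21, DESeq2 adjusted p 1.51e-09) and to 91.3 ± 15.9 in shBMAL1 (log2 −0.91, SE 0.21, adjusted p 7.17e-05). CXCL5 fell from 324 ± 13.5 to 236 ± 5.43 (log2 −0.46, adjusted p 0.00345) and to 126 ± 17.7 (log2 −1.36, adjusted p 1.7e-15). CXCL1 stood at 122 ± 2.84, 143 ± 36.0 and 96.0 ± 4.10, and CXCL16 at 21.1 ± 7.94, 20.3 ± 7.25 and 20.2 ± 3.74, neither called against shControl.

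Some calls in shARNT rested on single libraries. The DESeq2 adjusted p of SDC1 (log2 −0.16) was 0.0496, and it was 0.126 without shARNT replicate 1, 0.294 without shARNT replicate 3 and 0.232 without shControl replicate 3. GNG4 (log2 −1.21, 0.0225) gave 0.129 without shARNT replicate 3 and 0.144 without shControl replicate 2, and STAM (log2 0.18, 0.021) gave 0.135 and 0.143 without the same libraries. GRK3 (log2 −0.37, 0.0956) gave 0.374 and 0.166 without shARNT replicates 1 and 3, and 0.258 and 0.336 without shControl replicates 1 and 2. GRK5 (log2 0.26, 0.0579) gave 0.337 without shARNT replicate 1, and 0.214 and 0.144 without shControl replicates 1 and 2. The adaptor CRK (log2 0.19, 0.0664) lost its call without shARNT replicates 1 and 2 (0.154 and 0.25) and shControl replicates 1 and 3 (0.329 and 0.211). RGS3 (log2 −0.13, 0.0869), the docking protein BCAR1 (log2 0.12, 0.0653) and CCRL2, an atypical receptor that binds chemerin (log2 0.52, 0.0659), each lost theirs in 5 of the 6 fits without a library, with adjusted p up to 0.333, 0.32 and 0.287. Those highest values came without shControl replicate 2 for RGS3, shARNT replicate 1 for BCAR1 and shControl replicate 1 for CCRL2. The call remained only without shARNT replicate 2 for RGS3, shARNT replicate 3 for BCAR1 and shControl replicate 2 for CCRL2.

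The same held for some genes in shBMAL1. RGS4 (log2 −1.12, DESeq2 adjusted p 0.0114) gave 0.146 without shControl replicate 2, and PTK2B, of the focal adhesion kinase family (log2 0.55, 0.0138), gave 0.134 without shBMAL1 replicate 1. GRK3 (log2 0.39, 0.0484) gave 0.165 and 0.237 without shBMAL1 replicates 1 and 2, and 0.254 without shControl replicate 3. ARRB2 (log2 0.29, 0.0423), the other arrestin, gave 0.241 without shBMAL1 replicate 2 and 0.126, 0.107 and 0.116 without shControl replicates 1, 2 and 3. GNB3 (log2 −0.58, 0.0502) gave 0.189 and 0.126 without shBMAL1 replicates 1 and 2, and 0.12 and 0.195 without shControl replicates 1 and 2. GNG2 (log2 0.64, 0.0764) gave 0.281 and 0.215 without shBMAL1 replicates 1 and 2, and 0.215 and 0.219 without shControl replicates 2 and 3. GNG11 (log2 0.23, 0.062) gave 0.335 and 0.143 without shBMAL1 replicates 2 and 3, and 0.106 and 0.29 without shControl replicates 1 and 3. CCR6 (log2 0.88, 0.065), the receptor of CCL20, gave 0.438 and 0.102 without shBMAL1 replicates 1 and 2, and 0.154 and 0.224 without shControl replicates 2 and 3.

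Genes with the pattern most like each receptor were sought by the root mean square difference of log2 levels, centred on shControl, over the 9 libraries and 13321 genes. Nearest to ACKR3 were SLAMF7 (0.41), PTGS1 (0.63), PTHLH (0.65), LOC102724945 (0.65) and PTGES (0.65), where the median gene differed by 1.98. PTHLH, a secreted hormone, had 1347 ± 77.2 normalised counts for shControl, 301 ± 12.2 for shARNT and 654 ± 46.6 for shBMAL1. PTGS1 and PTGES, enzymes of prostaglandin synthesis, had 177 ± 3.90, 36.0 ± 7.13 and 113 ± 18.9, and 780 ± 100, 160 ± 29.7 and 545 ± 94.8. Nearest to CXCR4 were TMCC3 (0.20), SLC37A2 (0.21), KRT15 (0.21), OASL (0.21) and ETV4 (0.21), where the median gene differed by 1.15. SLC37A2, a sugar phosphate exchanger, had 2275 ± 29.0, 1707 ± 75.2 and 684 ± 38.5, and the ETS factor ETV4 had 371 ± 26.4, 250 ± 0.0297 and 90.5 ± 26.4. Since these genes were chosen for likeness, they were not tested, and none was sought for CXCL12.

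Neighbouring genes on the chromosome were also read. Within 500 kb of the start of ACKR3 on GRCh37, 3 other coding genes start, of which ASB18 was at 0 in every library, IQCA1 had means of at most 1.34 normalised counts, and GBX2 had 6.04 ± 2.03, 11.1 ± 2.37 and 5.27 ± 2.97 in shControl, shARNT and shBMAL1. Around CXCR4, UBXN4 fell by 0.38 in shBMAL1 (SE 0.07, DESeq2 adjusted p 4.54e-07), and MCM6, a subunit of the replicative helicase, rose by 0.29 (SE 0.07, adjusted p 0.000131). Another neighbour of CXCR4, LCT, had means of at most 2.30, and no coding gene starts within 500 kb of CXCL12.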

How the data were processed

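RNA of 9 libraries of 786-O cells was sequenced as stranded paired-end mRNA libraries. The values deposited by the authors were estimated counts, listed per gene as linear totals of reads. The methods of the study name GRCh37, SeqMan NGen and ArrayStar, whereas the labels name hg38, STAR and DESeq2. The annotation and strand setting of the counting are not given in the sources used here. From these estimated counts, a stand-in of 0.009 (46.3% of values) was set to 0, fractional values (6.14% of the others, none in the 3 genes) were rounded, and 53 rows with a repeated name were added together, which left 38021 genes. In 28 rows the symbol had become a date, and these were fitted but not named.

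The members and gene lists were chosen with earlier results of these data known. Each comparison was fitted in DESeq2 1.42.0 (R 4.3.3) on 6 libraries with median-of-ratios size factors, the two-sided Wald test and Benjamini-Hochberg adjustment after independent filtering, and calls were made at an adjusted p under 0.1. p-values weigh a group difference against the spread between libraries, and do not cover the spread between hairpins. Normalised counts use size factors over all 9 libraries, and reads per kilobase use the canonical GENCODE transcript. Genes were named by rule: in each list and shRNA comparison the 2 most lowered and 2 most raised called genes with a mean of at least 20, every other ligand, the 5 genes most alike (pseudocount 1, a mean of at least 50 in a group) and coding neighbours within 500 kb. DPP4, MMP14 in shARNT, ARRB1 and some further values were added after they were seen. On simulated counts of shARNT against shControl over 38021 genes, DESeq2 recovered 196 of 200 genes changed by 1 on the log2 scale, and edgeR 198. The share of false calls was 0.0841 for DESeq2 and 0.0748 for edgeR. The changed genes were drawn from those with a mean of at least 50 reads over the 6 libraries, so recovery of genes with fewer reads was not examined. Alternatives were edgeR 4.0.16, TMM scaling, a filter of 10 counts in 3 libraries, one fit of 9 libraries, a replicate block, an adjusted p under 0.05, a 1.5-fold minimum and leaving out each library. A few genes covered by these rules are not reported here. Figures used matplotlib 3.10.9.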

Additional observations from a re-analysis of the deposited data

Results flagged for a closer look

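For several genes of the lists, the knockdowns were called in opposite directions against shControl, and the direct comparison of shBMAL1 with shARNT differed as well (DESeq2, n = 3 libraries per group). The gelatinases MMP2 and MMP9 were higher in shBMAL1 than in shARNT by 1.23 (adjusted p 2.6e-55) and 1.54 (adjusted p 5.76e-09) on the log2 scale. The receptor kinase GRK3 was higher by 0.76 (adjusted p 6.01e-05). GRK5 was lower in shBMAL1 than in shARNT, with a log2 difference of −1.35 (adjusted p 2.02e-23), as was the sorting protein STAM with −0.49 (adjusted p 2.23e-10). These direct calls held in each fit without a single library, whereas some of the calls against shControl for GRK3, GRK5, STAM and MMP9 did not, as given with their values above. Causes were not tested.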

How the results depend on the processing

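ACKR3 and CXCR4 kept the direction of their log2 fold change in all 66 alternatives. Leaving out single libraries, ACKR3 ran from −3.30 to −3.16 in shARNT, from −1.24 to −0.92 in shBMAL1 and from 2.00 to 2.32 between the knockdowns. CXCR4 ran from −0.63 to −0.34 in shARNT, the value nearest 0 coming without shControl replicate 2, from −2.09 to −1.80 in shBMAL1, and from −1.53 to −1.33 between the knockdowns. No fold was computed for CXCL12 under the alternatives, since its counts were at or below the 3-read floor. A minimum change of 1.5-fold left 1200 of 5374 called genes in shARNT, 2606 of 7005 in shBMAL1 and 2064 of 6409 in the direct comparison, and 10 of 40, 20 of 49 and 19 of 48 list genes, by its own construction. Without single libraries, list genes called ran from 30 to 35 in shARNT, 41 to 46 in shBMAL1 and 39 to 44 directly. Of 1834 values for named genes under alternatives, 133 lost their call, 13 gained one and none reversed. Scaling alternatives moved the median gene by at most 0.01 on the log2 scale. Deviations of libraries with the same replicate number correlated at −0.15 to 0.11 and passed 0.1 in 1 of 9 pairs, and 3 of 9 libraries correlated best with their own number, so the numbers were not taken to pair the libraries. With the replicate block, ACKR3 had −3.24, −1.08 and 2.16 and CXCR4 −0.50, −1.95 and −1.45 in shARNT, shBMAL1 and the direct comparison, and 32, 41 and 43 list genes were called.

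Depth limits CXCL12 and CXCR4, the latter of which rests on few reads per library. The single label per target, the unstated strand setting and the shifts in mitochondrial share and in CDH6 and other renal markers, which went both ways, were not tested.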

Other observations

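Among the low receptors outside the rule for named genes, and chosen after their values were seen, CXCR3, which shares CXCL11 with ACKR3, had normalised counts of 9.72 ± 3.24 (shControl), 4.93 ± 2.99 (shARNT) and 1.33 ± 0.595 (shBMAL1) (SD, n = 3; DESeq2 log2 fold change in shBMAL1 −2.88, SE 1.09, adjusted p 0.0286, but 0.135 without shControl replicate 3). ACKR2, an atypical receptor that scavenges inflammatory CC chemokines, had 3.35 ± 1.16, 3.59 ± 2.01 and 12.6 ± 3.22 (log2 1.91 in shBMAL1, SE 0.81, adjusted p 0.0585). Its adjusted p was 0.13 and 0.237 without shBMAL1 replicates 1 and 2, and 0.177 and 0.111 without shControl replicates 1 and 3. At such counts a few reads decide each value.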
